A study of Mus musculus with 6 samples.

Results

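The genes described here build and finish mucin-type O-glycans, the sugar chains attached to serine and threonine on mucins and many other secreted and membrane proteins. They are 47 genes chosen by name, which match 48 of the 54453 gene identifiers in the tables because St6galnac2 has 2. They were grouped by step into initiation (12 genes), core (6), extension (7), fucose (3), sialic acid (7), sulphate (6) and sugar supply (6). Expression was measured by mRNA sequencing in 3 mouse pancreatic tumour organoid lines, T91, T113 and T118, of the KPC type, a mouse model of pancreatic ductal cancer. Each line carried either a short hairpin RNA against Scrib, the gene of a basolateral polarity scaffold, or a control hairpin against Renilla luciferase, which gives 3 libraries per group, 1 from each line. All 6 cultures share the genotype KPF/FC, which the labels do not spell out, and all were grown in Matrigel. The mouse behind T91 was female and those behind T118 and T113 were male, and the passage numbers were 10, 11 and 13. A single Scrib hairpin was used, brought in by virus according to the sample labels and by plasmid according to the series text.

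Mucin-type O-glycosylation begins in the Golgi, where a polypeptide GalNAc-transferase adds N-acetylgalactosamine to the protein. Core enzymes add galactose or N-acetylglucosamine, extension enzymes lengthen the branches, and the ends are capped with fucose, sialic acid or sulphate. The donors are nucleotide sugars from the hexosamine and sialic acid pathways and PAPS, the activated form of sulphate. In the pancreas, mucins and their altered sugar chains are known from ductal cancer and its mucus-producing precursors.

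Summed estimated counts ran from 24035559 to 36235773 per library, and levels are given as CPM, counts scaled to a common library size after TMM normalisation. Scrib itself stood at 157 to 177 CPM with the Renilla hairpin and at 29.7 to 34.99 CPM with the Scrib hairpin. The epithelial markers Epcam, Krt8, Krt18 and Krt19 were at 432 CPM or more in all 6 libraries, while the ductal factor Onecut1 did not exceed 0.512 CPM. The summed level of the 8 fibroblast markers was at most 1.70 CPM in controls and 7.78 CPM in knockdown libraries, and that of the 9 immune markers was at most 4.68 and 6.23 CPM. The summed level of 6 neural markers, nearly all of it Mbp, was 73.4 to 104.8 CPM over the 6 libraries. With no repeat cultures, the variation inside a line is unknown.

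The O-glycan genes were mostly lower after Scrib knockdown, and the 6 members with the smallest p in edgeR's test were Papss2, Chst4 and Slc26a2 (sulphate), Galnt7 (initiation), B4galnt2 (extension) and Gfpt1 (sugar supply). None of the 40 members tested reached an adjusted p of 0.05 (Benjamini-Hochberg) in the quasi-likelihood test of edgeR, where 0.00706% of all 14169 genes tested did, namely Scrib alone. At an unadjusted p under 0.05 there were 13 lower members and no higher one, which is 32.5% of those tested, against 5.06% of all genes for lower and 1.55% for higher. The Wald test of DESeq2, also with line as a term, called 5 members, all lower (Galnt6, Galnt7, B4galnt2, Papss2 and Gfpt1), which is 12.5%, against 0.402% of all genes lower and 0.0423% higher, and limma-voom called 0 members, against 0.0565% of all genes. Within the lines, 18 of the 40 were lower in all 3 lines (45.0%), against 15.4% of all genes, and none was higher in all 3 lines, against 14.7%. The members were named with earlier results of these data known, so these shares describe the chosen genes.

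The fitted log2 fold changes had a median of -0.21 over the 40 members and of -0.01 over all genes. By line, the median log2 ratio of the members was lowest in T118, at -0.36, followed by -0.25 in T113 and -0.08 in T91. T118 gave the lowest of the 3 ratios for 24 members (60.0%), whereas over all genes it did so for 40.1%, and T91 gave the lowest for 6 (15.0%), against 39.4%. With 1 library per hairpin and line, the differences between lines in response were not tested. In bulk RNA, fewer cells of a type and less RNA per cell cannot be told apart. No tested member had passed the low-count filter through its control libraries alone. Of the 48 identifiers, 8 did not pass it and are given by their counts.

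**Figure D1:**
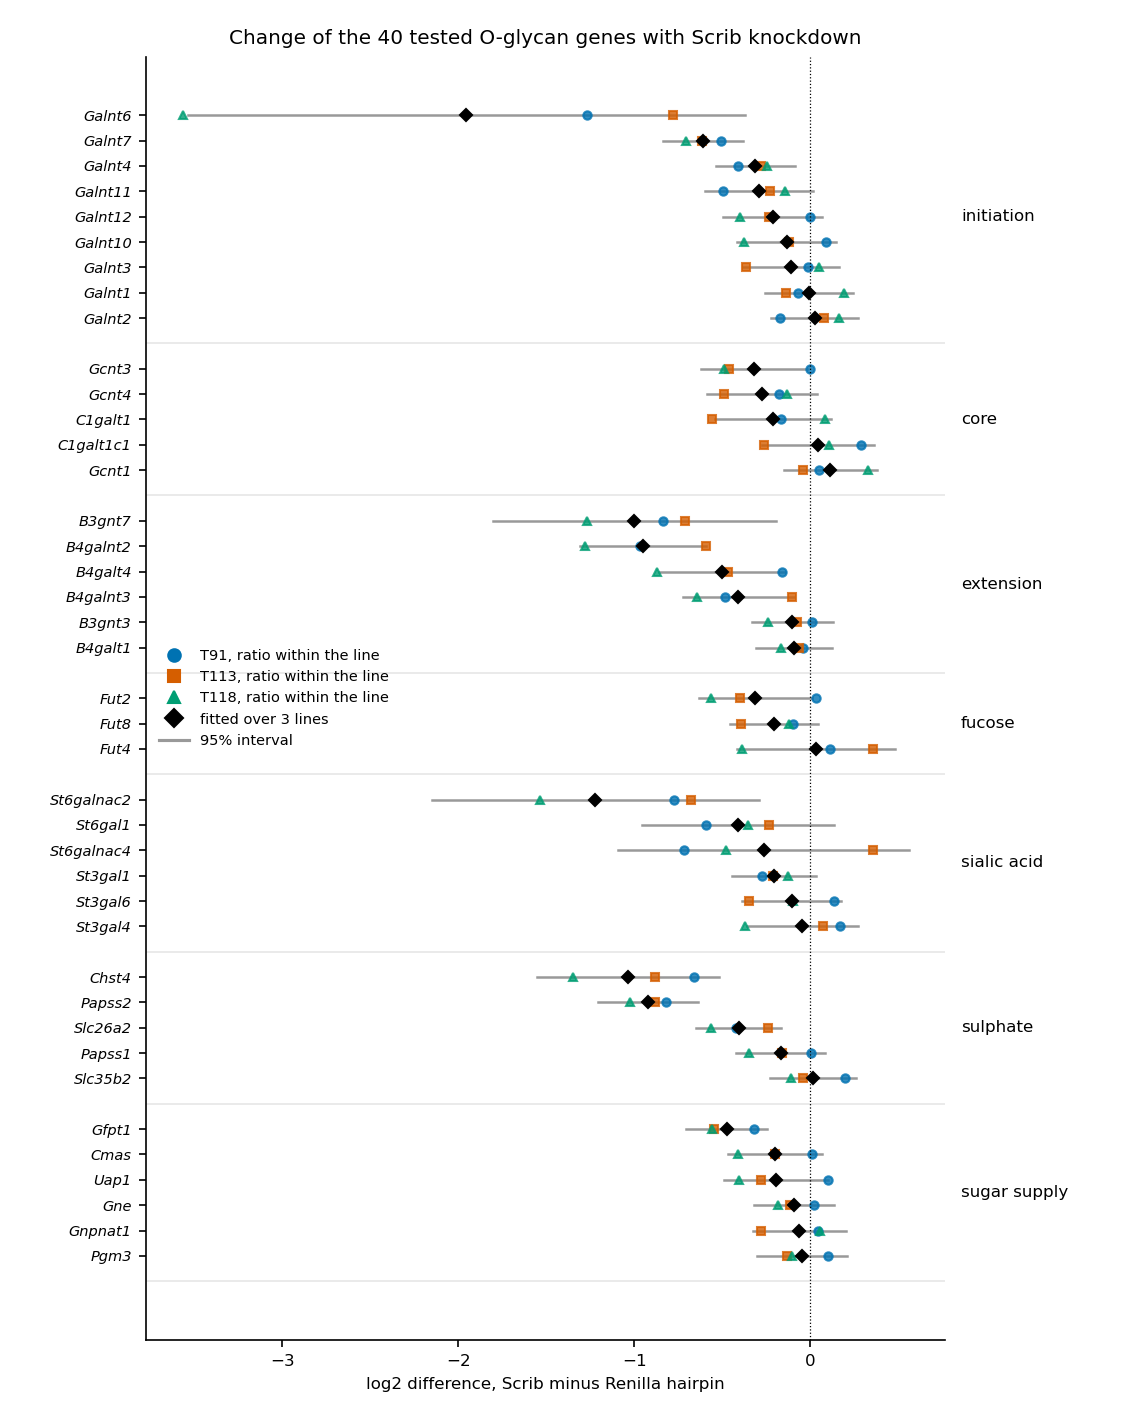
Log2 difference between the Scrib and Renilla hairpin (horizontal axis) for each of the 40 tested genes, grouped by step. Black diamonds are fitted values over the 3 lines with 95% intervals as grey bars, and coloured symbols are the ratios within each line. The intervals of 13 genes lie wholly below 0, and none lies wholly above 0.

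For the 5 members that DESeq2 called as lower, each in its own test, the 250 bases before the start site are shown (RefSeq, GRCm38.p6, strand of the gene, 5′ to 3′). The main test, by edgeR, called none of them, and whether they share a regulator was not tested. Capitals mark the GC box GGGCGG, bound by Sp1-type and Kruppel-like factors, and ACGTG, the core shared by sites of XBP1, HIF and other basic factors, each on either strand. The windows are chr19:32595465-32595714 (plus strand) for Papss2, chr11:95914872-95915121 (minus) for B4galnt2, chr8:57653056-57653305 (minus) for Galnt7, chr15:100729377-100729626 (minus) for Galnt6 and chr6:87042596-87042845 (plus) for Gfpt1.
Papss2: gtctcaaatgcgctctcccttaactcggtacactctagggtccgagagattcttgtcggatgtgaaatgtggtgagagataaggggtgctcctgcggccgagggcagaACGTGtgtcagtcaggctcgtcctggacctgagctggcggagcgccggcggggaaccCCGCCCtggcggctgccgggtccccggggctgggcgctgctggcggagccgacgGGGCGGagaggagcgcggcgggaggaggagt
B4galnt2: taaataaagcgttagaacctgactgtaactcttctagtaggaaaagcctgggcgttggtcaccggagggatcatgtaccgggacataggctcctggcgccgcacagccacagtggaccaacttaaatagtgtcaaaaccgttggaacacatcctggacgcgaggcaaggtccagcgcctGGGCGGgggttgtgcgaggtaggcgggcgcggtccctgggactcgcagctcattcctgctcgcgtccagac
Galnt7: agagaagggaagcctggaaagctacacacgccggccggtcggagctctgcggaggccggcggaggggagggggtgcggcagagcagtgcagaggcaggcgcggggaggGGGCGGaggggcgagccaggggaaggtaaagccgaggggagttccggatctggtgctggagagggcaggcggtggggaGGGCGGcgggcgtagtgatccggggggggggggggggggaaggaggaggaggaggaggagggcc
Galnt6: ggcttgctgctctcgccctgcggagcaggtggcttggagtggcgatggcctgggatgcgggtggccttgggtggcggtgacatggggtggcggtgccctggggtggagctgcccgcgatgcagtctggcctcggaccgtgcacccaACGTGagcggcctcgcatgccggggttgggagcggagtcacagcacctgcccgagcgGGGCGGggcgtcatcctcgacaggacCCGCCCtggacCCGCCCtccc
Gfpt1: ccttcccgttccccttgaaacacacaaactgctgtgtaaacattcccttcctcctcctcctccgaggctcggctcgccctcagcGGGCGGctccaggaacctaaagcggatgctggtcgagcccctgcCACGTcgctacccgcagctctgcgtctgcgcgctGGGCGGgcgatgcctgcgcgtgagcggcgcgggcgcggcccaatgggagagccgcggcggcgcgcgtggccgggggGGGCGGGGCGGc
All 5 windows held at least 1 GC box, from 1 in B4galnt2 to 4 in Gfpt1, where 2 of them share a base. ACGTG occurred once each in Papss2, Galnt6 and Gfpt1 and was not found in B4galnt2 or Galnt7. A TATA box (TATAAA) was found in none of the 5, and a CCAAT box only in Gfpt1. Of the 33 members with a window in the RefSeq table, 22 (66.7%) held a GC box and 10 (30.3%) ACGTG, against 32.7% and 16.6% of all 32851 windows of that length. The median G+C content was 61.6% in the members' windows and 52.4% in all windows. Each member counts with 1 window, the one nearest its annotated 5′ end, while no such choice was made among all windows. The shares and medians therefore come from unlike sets. These are matches of letters, with no measurement of binding.

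Among the GalNAc-transferases, Galnt7 was lower after knockdown in each line by a similar factor and Galnt6 by very different ones, while the abundant Galnt1, Galnt2 and Galnt3 did not differ beyond their error. Galnt7 (chr8:57523828-57653032, minus strand, GRCm38) encodes a transferase that acts on peptides already carrying a first sugar. With the Renilla hairpin it stood at 71.7 CPM in T91, 172 CPM in T113 and 101 CPM in T118, and with the Scrib hairpin at 50.4, 112.6 and 61.6 CPM. Every Scrib library was below its own line's control, but the groups overlapped because T113 was high with both hairpins. The log2 fold change was -0.61 (standard error 0.09), with an adjusted p of 0.397 by edgeR and of 3.69e-04 by DESeq2. With a line left out, edgeR's adjusted p was 0.0228 without T91 and 0.262 without T118. It did not pass 0.05 without T113 either. Galnt6 (chr15:100691813-100729376, minus strand), an isoenzyme studied in several carcinomas, stood at 0.905, 10.3 and 15.1 CPM with the Renilla hairpin and at 0.336, 5.96 and 1.21 CPM in knockdown libraries of T91, T113 and T118. In T118 it had 441 estimated counts in control and 33 after knockdown, and in T91 it was near the floor with 27 and 8 counts. The log2 fold change of Galnt6 was -1.95 (standard error 0.63) and an adjusted p of 0.745 by edgeR and of 0.0353 by DESeq2, and its value was -0.97 without T118 and -2.81 without T113. The antisense gene Galnt6os covers 11.4% of its exon bases, and no strand setting is stated for the counts.

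Galnt4 was lower by less but evenly, at 44.7, 68.7 and 49.1 CPM in controls and 33.6, 56.7 and 41.4 CPM in knockdown libraries (log2 fold change -0.31, standard error 0.09, edgeR adjusted p of 0.712). It is a single-exon gene whose exon overlaps Poc1b on the same strand, and 7.73% of its 31-base words also occur in other genes. Galnt11 was lower in all 3 lines as well, at -0.29 (standard error 0.13), and Galnt12 and Galnt10 had log2 fold changes of -0.21 and -0.14 with ratios near 0 or above in T91. The fold changes of Galnt3, Galnt1 and Galnt2 were -0.11, -0.01 and 0.02, with 95% intervals from -0.38 to 0.16, from -0.26 to 0.24 and from -0.22 to 0.27. Of the 31-base words of Galnt2, 88.9% also occur in other genes, most often in the readthrough gene Gm20388. With so much shared sequence, most reads of Galnt2 and Gm20388 cannot be told apart. Gm20388 was listed at 0 in all 6 libraries, which does not show that it was absent. Per kilobase of merged exon, the control level was 54.6 ± 5.04 CPM for Galnt2, 33.7 ± 3.90 for Galnt3 and 33.1 ± 11.5 for Galnt1 (SD, n = 3), of which the last pair did not differ beyond its spread. Galnt7 followed at 21.9 ± 9.87 CPM per kilobase, and Galnt11 and Galnt6 had the lowest means of the 9 tested, at 2.74 ± 0.245 and 2.26 ± 1.86, which did not differ beyond their spread. Galnt5, Galnt14 and Galnt18 did not pass the low-count filter. Galnt5 had between 1 and 31 counts per library, Galnt18 had 3 counts in 1 library and 0 in the others, and Galnt14 had 0 counts in all 6, which allows up to 0.125 CPM in the shallowest library.

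**Figure D2:**
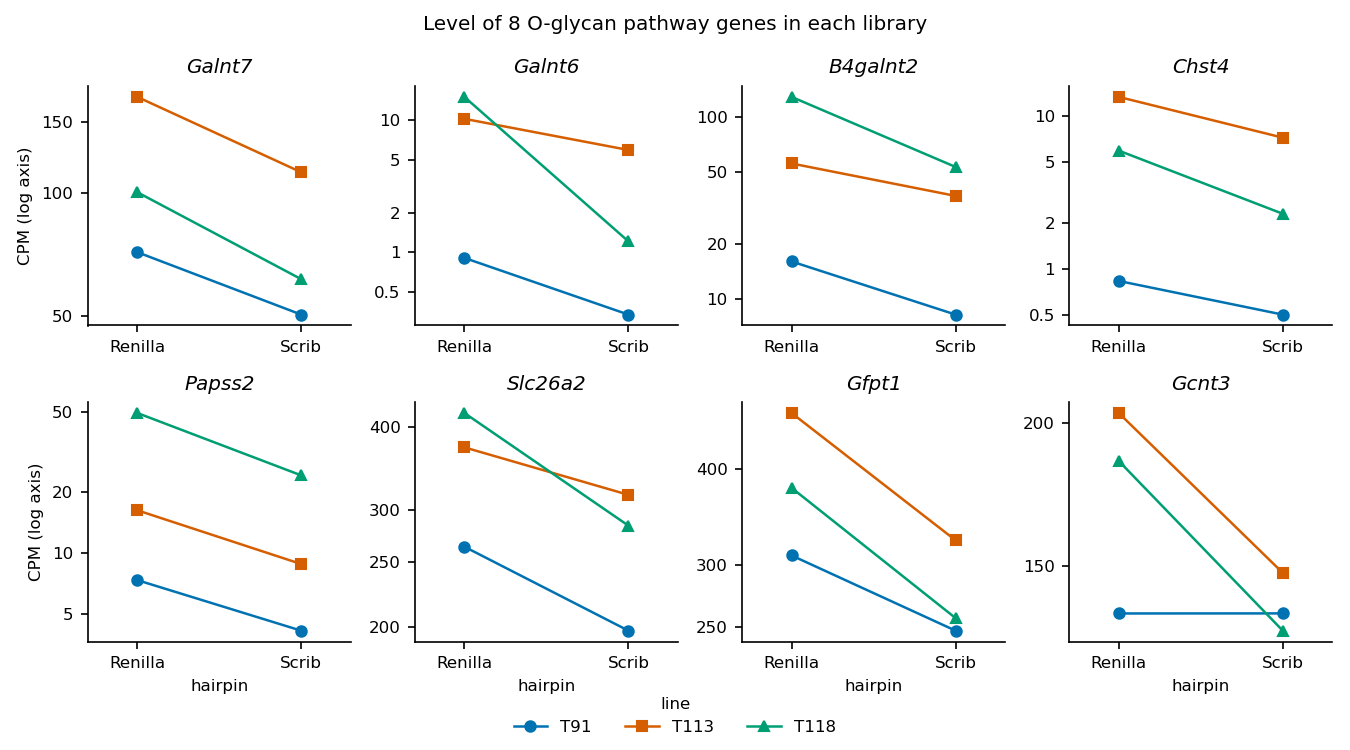
Level of 8 genes in CPM (vertical log axes, which differ between panels) with the Renilla and the Scrib hairpin, with 1 line joining the 2 libraries of each tumour line. All 3 lines slope down for 7 of the genes, most steeply Galnt6 in T118 (15.1 to 1.21 CPM), while Gcnt3 in T91 is level at 136 CPM.

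In the core step Gcnt3 was the 1 gene of 5 whose 95% interval lay below 0, from -0.62 to -0.02, and it was level in T91. Gcnt3 encodes the mucin-type enzyme that makes core 2 and core 4 branches in mucus-producing epithelium. Its levels were 136, 204 and 185 CPM in controls and 136, 148 and 132 CPM in knockdown libraries of T91, T113 and T118. T113 and T118 were lower and T91 was level, and after knockdown the 3 lines lay close together. The log2 fold change was -0.32 (standard error 0.13) and an edgeR adjusted p of 0.748. Gcnt4, another core 2 enzyme, stood at 21.99, 28.0 and 8.50 CPM and at 19.4, 19.9 and 7.76 CPM, lower in each line (-0.27, 95% interval from -0.59 to 0.04, edgeR adjusted p of 0.772). C1galt1, the core 1 galactosyltransferase, was at 91.7, 171 and 145 CPM with the Renilla hairpin and at 81.7, 116 and 154 CPM in knockdown libraries, lower in T91 and T113 and slightly higher in T118. Its dedicated chaperone gene C1galt1c1 had a log2 fold change of 0.04 and the leukocyte-type core 2 enzyme gene Gcnt1 one of 0.11, with 95% intervals from -0.28 to 0.36 and from -0.15 to 0.38. The core 3 enzyme gene B3gnt6 had at most 6 counts in any library. Of the 5 core genes tested, 3 were lower and 2 higher, and 1 (Gcnt4) was lower in all 3 lines.

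All 6 extension genes tested had fold changes below 0, and 5 of them were lower in all 3 lines. B4galnt2 (chr11:95865943-95914891, minus strand) makes the Sda/Cad antigen by adding N-acetylgalactosamine beside a terminal sialic acid. Its levels were 16.03, 55.6 and 129.6 CPM in controls and 8.16, 36.8 and 53.2 CPM in knockdown libraries of T91, T113 and T118. Both hairpin groups followed the same order of lines, and each knockdown library was below its control. The fitted level after knockdown was 51.7% of control, which is -0.95 on the log2 scale (standard error 0.15), with an adjusted p of 0.397 by edgeR and of 7.55e-05 by DESeq2. An antisense gene, Gm11534, overlaps 15.3% of the exon bases of B4galnt2.

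B4galt4, a galactosyltransferase that prefers sulphated N-acetylglucosamine, was at 29.4, 41.2 and 48.4 CPM and at 26.3, 29.8 and 26.4 CPM. The control libraries spread more widely than the knockdown libraries (log2 fold change -0.50, standard error 0.15, edgeR adjusted p of 0.712). B4galnt3, which makes the LacdiNAc motif, was at 29.0, 39.9 and 32.2 CPM and at 20.7, 37.2 and 20.6 CPM, with the smallest difference in T113 (-0.41, standard error 0.13). B3gnt7, an N-acetylglucosaminyltransferase of keratan sulphate chains, was rare, with 24, 67 and 26 counts in control and 10, 33 and 9 in knockdown libraries. B4galt1 and B3gnt3, the general galactosyltransferase and the enzyme that extends core 1, had log2 fold changes of -0.09 and -0.10, with 95% intervals from -0.31 to 0.13 and from -0.33 to 0.13. B4galt1 was nevertheless the 1 tested member whose groups did not overlap, at 117 to 127 CPM in controls and 112 to 114 CPM in knockdown libraries. Over all genes, 2.14% were lower without overlap and 2.60% higher. B3gnt3 had the highest level per kilobase of the members tested, at 100.5 ± 8.19 CPM in control libraries (SD, n = 3). B3gnt5, which starts lacto-series glycolipids, did not pass the filter and stood at 3.04 and 1.27 CPM in T113 (Renilla, then Scrib hairpin), with 5 or fewer counts in each other library.

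The 3 fucosyltransferase genes showed no difference beyond their error. Fut2, the secretor-type enzyme of H antigen on mucosal glycans, was at 144, 304 and 211 CPM with the Renilla hairpin and at 147, 230.1 and 143 CPM in knockdown libraries of T91, T113 and T118. As with Gcnt3, T113 and T118 were lower and T91 was not (log2 fold change -0.31, 95% interval from -0.63 to 0.01, edgeR adjusted p of 0.765). Fut8, which fucosylates the core of N-glycans rather than O-glycans, was at 56.6, 124 and 23.9 CPM and at 52.9, 94.5 and 21.96 CPM, lower in each line by less than the lines lay apart. Fut4, an enzyme of Lewis x-type structures, was at 12.0, 7.19 and 8.40 CPM and at 13.04, 9.21 and 6.40 CPM, higher in T91 and T113 and lower in T118. Its fitted value was 0.03 and lay below 0 without T91 (-0.01) and without T113 (-0.13).

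Among sialyltransferases the abundant enzymes of terminal galactose differed little, and St6galnac2, which sialylates core structures next to the protein, was lower in each line but rare. It had 10, 15 and 69 counts in control and 4, 7 and 21 in knockdown libraries, with a fitted value of -1.22 on the log2 scale (standard error 0.39) and an edgeR adjusted p of 0.735. With T118 left out, St6galnac2 did not pass the low-count filter and was not tested. The second St6galnac2 identifier had 5 or fewer counts in each library and was not tested. St3gal1, which sialylates core 1, stood at 34.0, 32.2 and 17.8 CPM and at 28.1, 27.8 and 16.3 CPM, lower in each line (-0.21, standard error 0.10, edgeR adjusted p of 0.772). St6gal1, mainly an enzyme of N-glycans, was at 3.45, 1.16 and 4.47 CPM and at 2.27, 0.976 and 3.48 CPM (-0.41, standard error 0.23). Dcbld2 on the opposite strand covers 26.0% of the exon bases of St3gal6. St3gal6 and St3gal4, which cap lactosamine ends, had log2 fold changes of -0.11 and -0.04, with 95% intervals from -0.39 to 0.18 and from -0.36 to 0.27. St6galnac4, which adds sialic acid to sialylated core 1, had one of -0.27 with an interval from -1.09 to 0.56. St6galnac1, the sialyl-Tn synthase, had 0 counts in all 6 libraries. Of its 31-base words, 43.2% also occur in other genes, most often in Gm11735, which had 0 counts as well. Per kilobase, the control level ran from 39.2 ± 10.6 CPM for St3gal6 and 15.4 ± 7.49 for St3gal4 to 4.09 ± 1.29 for St3gal1, 0.616 ± 0.345 for St6gal1, 0.201 ± 0.0835 for St6galnac4 and 0.178 ± 0.198 for the tested St6galnac2 identifier (SD, n = 3). The last pair did not differ beyond its spread.

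In the sulphate step a transporter, a donor-making enzyme and a transferase were lower together in every line. Papss2 (chr19:32595790-32667187, plus strand) encodes a PAPS synthase that activates sulphate. It stood at 7.34 CPM in T91, 16.3 CPM in T113 and 49.5 CPM in T118 with the Renilla hairpin, and at 4.12, 8.82 and 24.3 CPM with the Scrib hairpin. The lines spanned a wider range than the hairpins, yet the 3 ratios within a line were close, at -0.82, -0.88 and -1.03 on the log2 scale. The fitted level after knockdown was 52.8% of control (log2 fold change -0.92, 95% interval from -1.21 to -0.64). Its adjusted p was 0.327 by edgeR and 1.63e-04 by DESeq2. With a line left out, edgeR's adjusted p was 0.0191 without T91, 0.624 without T113 and 0.209 without T118. Papss1, the paralogue, was at 91.8, 139 and 92.3 CPM and at 92.1, 124 and 72.4 CPM, level in T91 and lower in T113 and T118, with a fitted log2 fold change of -0.17 (95% interval from -0.42 to 0.08). Per kilobase, Papss1 was the more abundant of the pair in control libraries, at 35.2 ± 8.84 against 6.55 ± 5.97 CPM (SD, n = 3).

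Chst4 (chr8:110029153-110039740, minus strand), a sulphotransferase of N-acetylglucosamine known from L-selectin ligands and mucins, was at 0.838, 13.4 and 5.97 CPM with the Renilla hairpin and at 0.505, 7.26 and 2.31 CPM in knockdown libraries. Each knockdown library was lower than its control, although T91 rested on 25 and 12 counts (log2 fold change -1.03, standard error 0.21, adjusted p of 0.554 by edgeR and of 0.140 by DESeq2). Slc26a2, the sulphate transporter of the cell membrane, was abundant, at 264, 373 and 419.9 CPM and at 197, 316 and 284 CPM, lower in each line (-0.41, standard error 0.10, edgeR adjusted p of 0.617). Slc35b2, which carries PAPS into the Golgi, had a log2 fold change of 0.02 with an interval from -0.23 to 0.26. Chst11, a chondroitin sulphotransferase, had 6 or fewer counts in each library and was not tested.

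Of the sugar supply genes, Gfpt1 differed most and the enzymes after it little. Gfpt1 (chr6:87042846-87092197, plus strand) encodes the entry enzyme of the hexosamine pathway. It was at 309, 472 and 378 CPM with the Renilla hairpin and at 247, 323 and 256 CPM in knockdown libraries of T91, T113 and T118. Each line was lower, with ratios of -0.32, -0.55 and -0.56 on the log2 scale. The fitted value was -0.48 with a standard error of 0.10 and an adjusted p of 0.554 by edgeR and of 0.0101 by DESeq2. With a line left out, edgeR's adjusted p was 0.0306 without T91 and 0.559 without T118. It did not pass 0.05 without T113 either. Downstream, Gnpnat1, Pgm3 and Uap1 had log2 fold changes of -0.06, -0.05 and -0.20. Styx on the opposite strand covers 81.9% of the exon bases of Gnpnat1, and Dop1a covers 28.3% of those of Pgm3, so their counts are uncertain without a strand setting. Uap1, which makes UDP-N-acetylglucosamine, was at 103, 124 and 145 CPM and at 111, 102 and 109.6 CPM, higher in T91 and lower in T113 and T118. Cmas, which activates sialic acid, was at 90.7, 108 and 147 CPM and at 91.3, 93.6 and 111 CPM, level in T91 and lower in the other lines (-0.20, standard error 0.11, edgeR adjusted p of 0.783). Gne, the first enzyme of sialic acid synthesis, had a log2 fold change of -0.09 with an interval from -0.32 to 0.14.

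Many of these genes also differed between the tumour lines. In the same edgeR fit, the F-test of the line terms called 20 of the 40 members at an adjusted p under 0.05 (50%), against 14.0% of all genes. T91 had the lowest mean for 10 of the 20, T118 for 7 and T113 for 3, while T113 and T118 each had the highest for 9 and T91 for 2. Chst4 had the widest range, with line means over both hairpins of 0.671 CPM in T91, 10.3 CPM in T113 and 4.14 CPM in T118 (adjusted p of 0.00141 by edgeR). B4galnt2 and Papss2 were both lowest in T91 and highest in T118, with ratios of the highest to the lowest line mean of 7.56 and 6.43 and adjusted p of 0.00102 and 4.85e-04 by edgeR. Fut8 took another order, highest in T113 at 109 CPM and lowest in T118 at 22.9 CPM (adjusted p of 6.09e-04), and St6gal1 was highest in T118 and lowest in T113 (3.72-fold, adjusted p of 0.0171 by edgeR). Galnt6 had line means of 0.621, 8.11 and 8.13 CPM in T91, T113 and T118, but the line terms did not pass for it (adjusted p of 0.0645 by edgeR). Sex and passage change with the line and cannot be told apart from it.

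**Figure D3:**
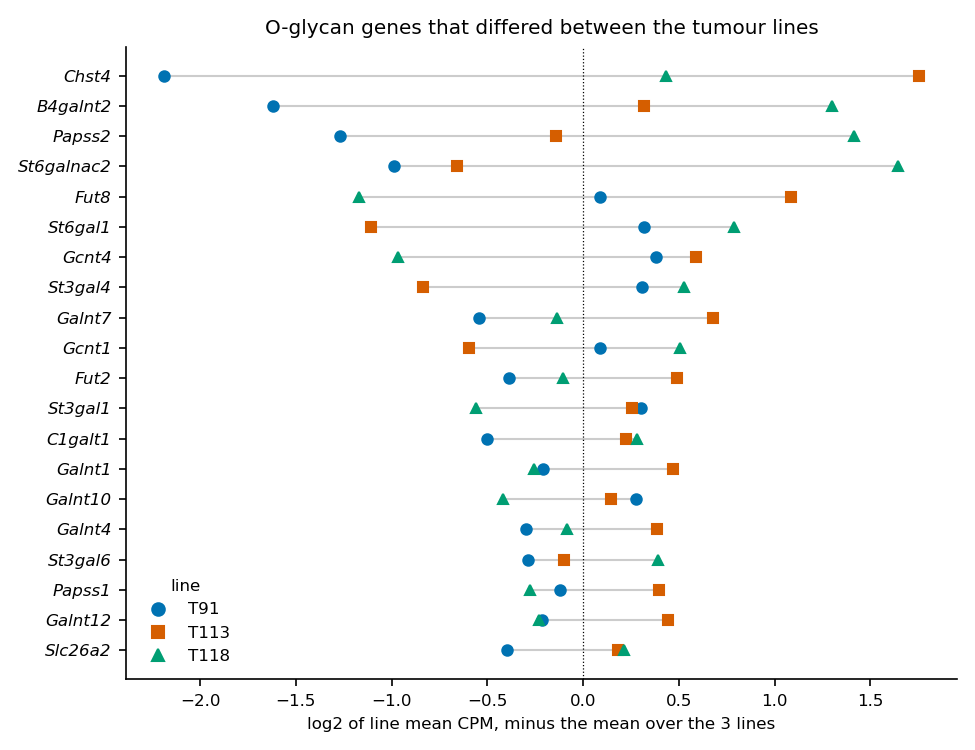
Mean CPM of each line over both hairpins, as log2 relative to the mean of the 3 lines (horizontal axis), for the 20 genes whose line terms passed edgeR's F-test. Chst4, B4galnt2 and Papss2 show the widest ranges, with T91 the lowest line for all 3.

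Related genes outside the set were compared through lists named with it. Over all genes tested, 51.8% had a fold change below 0 and 15.4% were lower in all 3 lines. At an unadjusted p under 0.05 by edgeR, 5.06% of all genes were lower and 1.55% higher. Of 37 other O-glycan enzyme genes 17 were tested, with a median log2 fold change of -0.10. At an unadjusted p under 0.05, 2 were lower (11.8%), and 1 was lower in all 3 lines (5.88%). Those were Galntl6, a GalNAc-transferase family member (-0.96, standard error 0.28), and Fut9, a Lewis x fucosyltransferase (-0.59, standard error 0.23), and Galntl6 was the 1 lower in all 3 lines. B3gnt2, the main polylactosamine enzyme, had a value of -0.18 (standard error 0.11). Of 22 tested genes of sugar nucleotide supply, 18 were lower, with a median of -0.10. An unadjusted p under 0.05 was found for 2 of them (9.09%), the Golgi transporter genes Slc35d2 (-0.51) and Slc35a3 (-0.32). Hk2, a hexokinase gene, had a value of -0.18. For 31 N-glycan genes the median was -0.04 with 22 lower and 9 higher. Among them 2 branching enzyme genes (6.45%), Mgat4a (-0.27) and Mgat5 (-0.30), had an unadjusted p under 0.05, a share near that of all genes. Mgat3, the bisecting enzyme gene, had a value of -0.22. For 28 glycosaminoglycan genes the median was 0.00 with 15 lower and 13 higher. Among them Xylt1, a xylosyltransferase gene, had -0.94, and Chst12 and Chpf of chondroitin synthesis had 0.26 and 0.18. No gene of these 4 lists was called by edgeR or DESeq2.

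Sulphate handling outside the set gave 12 tested genes, 9 lower and 3 higher, with a median of -0.13. Of these, 4 were lower at an unadjusted p under 0.05 by edgeR (33.3%), against 5.06% of all genes. In all 3 lines, 4 of the 12 were lower and 2 higher, against 15.4% and 14.7% of all genes. Sult1d1, a cytosolic sulphotransferase that uses PAPS, was at 2.38, 7.27 and 42.4 CPM with the Renilla hairpin and at 1.85, 3.65 and 11.5 CPM in knockdown libraries of T91, T113 and T118, and DESeq2 called it (adjusted p of 0.0457; 0.607 by edgeR). Suox, the sulphite oxidase gene, was at 22.4, 56.3 and 185 CPM and at 18.4, 46.3 and 114.6 CPM, lower in each line (-0.43, standard error 0.12). Both were lowest in T91 and highest in T118 with either hairpin, the order of lines that Papss2 showed. Sulf2, an extracellular sulphatase gene, was lower in each line as well (-0.46, standard error 0.15).

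**Figure D4:**
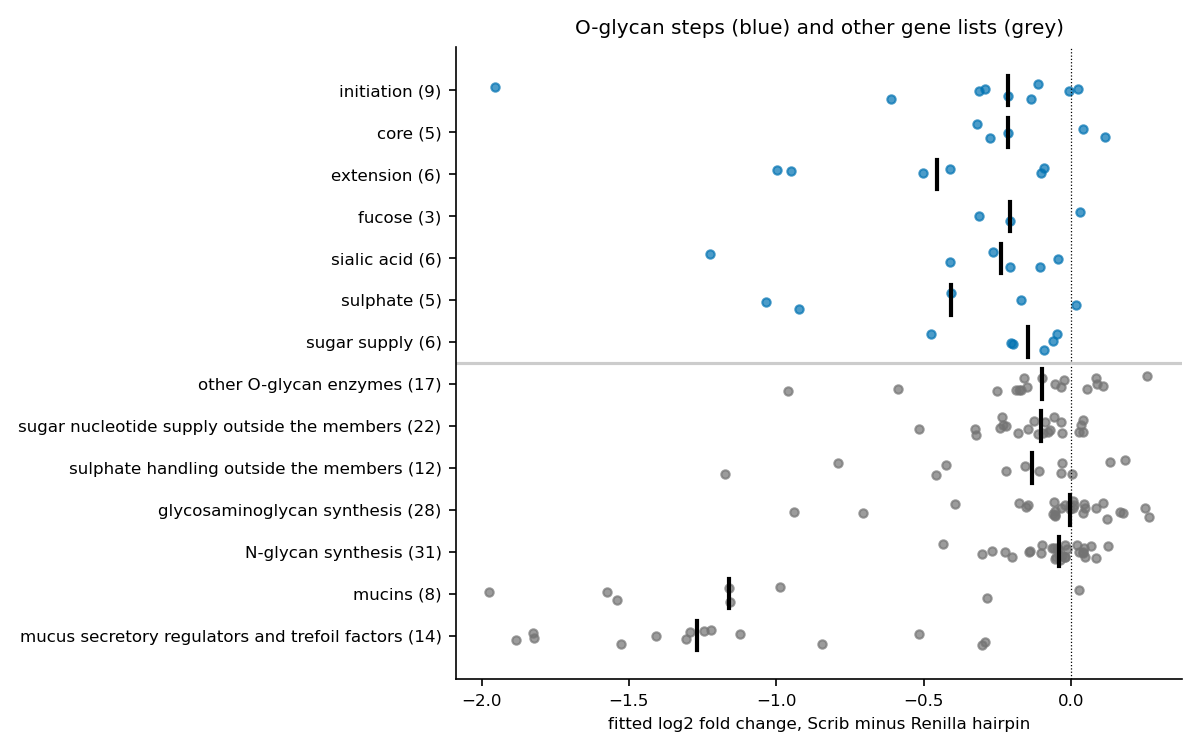
Fitted log2 fold change of each tested gene (horizontal axis) for the 7 O-glycan steps in blue and 7 other lists in grey, with black bars at the medians and the number of genes in brackets. The medians run from -0.46 (extension) to -0.14 (sugar supply) over the steps, from -0.13 to 0.00 over the 5 enzyme and transporter lists, and are -1.16 and -1.27 for mucins and mucus secretory genes.

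The proteins that carry these sugars and the genes of mucus-secreting cells were mostly lower as well. The transmembrane mucin gene Muc4 had a log2 fold change of -1.16 (DESeq2 adjusted p of 6.65e-06, edgeR 0.327), while Muc1, the most abundant mucin gene here, stood at 349, 412 and 357 CPM with the Renilla hairpin and at 342, 394 and 211 CPM in knockdown libraries. Muc13, Muc3a and Muc3 had log2 fold changes of -1.16, -1.97 and -1.54, of which Muc3a and Muc3 had 8 or fewer counts in T91, and the gel-forming mucin gene Muc2 was at 60.02 and 45.01 CPM (control, then knockdown) in T113 and at 5.56 and 0.659 CPM in T118. Of 18 mucus secretory and trefoil genes, 14 were tested, and 12 of these were lower in all 3 lines (85.7%), against 15.4% of all genes. The summed level of the 18 was 430.4, 3059 and 961 CPM in controls of T91, T113 and T118. In knockdown libraries of those lines it was 302, 1845 and 183 CPM. Among the 18 genes, the ER stress sensor gene Ern2 of mucous cells had a log2 fold change of -1.22 (DESeq2 adjusted p of 6.73e-04, edgeR 0.509). Agr2, a disulphide isomerase gene of mucin folding, had one of -1.12 (DESeq2 adjusted p of 1.35e-07, edgeR 0.394), and Tff2, a trefoil gene, one of -0.84. Whether the lower mucus secretory genes have a part in the lower O-glycan genes was not tested.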

How the data were processed

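For every library the authors deposited a table of estimated counts by Ensembl gene, with no scaling for depth. Salmon 1.4.0, DESeq 2 and GRCm38 are named in the submitters' processing notes. Annotation release, strand setting and the summing to genes are not given in any source used here. Estimated counts were rounded and matched to GENCODE symbols of GRCm38 (54131 of 54453 identifiers). Analysis used R 4.3.3. Genes were filtered with edgeR's filterByExpr (minimum count 10), which left 14169, and scaled by TMM. edgeR 4.0.16's quasi-likelihood test with terms for line and hairpin was the main test, two-sided, with Benjamini-Hochberg adjustment over all genes tested. DESeq2 1.42.0 and limma 3.58.1 (voom) were alternatives, as were other scalings, filters, thresholds, a fit without the line term and leaving out each line. Each line received both hairpins, which pairs the libraries, and deviations of paired libraries from their group means correlated at 0.62 to 0.67. Intervals are 95% intervals, and standard errors come from the F statistic. Log2 ratios within a line use a prior count of 2. Levels per kilobase use the merged exon length. The fit was tested on simulated data.

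All members may be named. Values in every library are given for the 3 members per step with the smallest p. They are also given for the 6 with the widest range between lines among members with a mean of at least 1 CPM. Papss1 was added after its values were seen, as were Muc1, Sult1d1 and Suox from the outside lists. B3gnt7, also outside the rule, is given by its counts in every library. Of each outside list the 3 genes of smallest p are named, and of mucins also the 5 most abundant. Galnt3, B3gnt3 and most other members not in that rule are given by fold change and interval. The members and lists were chosen with earlier results of these data known. Per gene, the hairpin p-values set the hairpin difference against its variation among the 3 tumour lines. The estimate of that variation also borrows from all genes.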

Additional observations from a re-analysis of the deposited data

How the results depend on the processing

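Depth limits the rare members, since 1 count was worth 0.0276 to 0.0416 CPM and Galnt6, Chst4, B3gnt7, St6galnac2 and St6galnac4 rest on under 30 counts in at least 1 control library. The number of members past the test was 0 in the main setting, 3 without a low-count filter and 5 with DESeq2, and ran from 0 to 3 when a line was left out (3 without T91: Galnt7, Gfpt1 and Papss2). Over all genes those settings called 1, 64 and 63 genes, and 94 without T91, 9 without T113 and 25 without T118. limma-voom called 8 genes, none a member. In the fit with no replicate block for the line, 0 members passed and the median log2 fold change was -0.22, against -0.21 in the paired fit, and it ran from -0.26 to -0.18 when a line was left out. The count of members lower in all lines was 18, 20 with DESeq2 size factors and 23 with library size alone. It was 11 when each ratio had to be at most -0.2. Over the lines that remain when 1 is left out it was 19 to 30, an alternative chosen after seeing the data. With fewer lines the rule is easier to meet, so 19 to 30 cannot be set against 18. The share over all genes is given for the main setting only. The count that differed between lines was 20, fell to 8 at an adjusted p of 0.01, and ran from 9 (without T113) to 22 when a line was left out, also chosen after seeing the data. Here too, the share over all genes is given for the main setting only, so the changed counts cannot be set against it. Fut4 turned from 0.03 to -0.01 without T91 and to -0.13 without T113, and was 0.23 without T118. Other members near 0 also changed sign when a line was left out: C1galt1c1 (-0.08), Slc35b2 (-0.07) and Galnt1 (0.03) without T91, Galnt1 (0.07), Gnpnat1 (0.05), St3gal6 (0.02), Galnt3 (0.02) and Pgm3 (0.0008) without T113, and St3gal4 (0.12) and Galnt2 (-0.05) without T118. Without a low-count filter Slc35b2 was at -0.0035. The cause of these shifts was not tested. Neither other scaling turned the direction of any tested member.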
